A study of Mus musculus with 8 samples.

Results

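TRAV1, TRAV2, TRAV17 and TRAV19 are variable segments of the mouse T cell receptor alpha locus that each exist as 1 copy, the first pair at the 5′ end of the TRAV array and the second pair near its 3′ end, close to the TRAJ segments. Their chains were found as productive TRA contigs whose V segment carried 1 of these 4 names, which gave 205 of 5997 TRA contigs in 4 T cell receptor libraries, 77 with TRAV1 or TRAV2 and 128 with TRAV17 or TRAV19. The libraries were made from CD45+ immune cells sorted from brain parenchyma of C57BL/6 mice of the genotypes 5xFAD;Cxcr6-/- (2 libraries) and 5xFAD (2 libraries). All carried the 5xFAD transgenes, which are driven in neurons by the Thy1 promoter and serve as a model of amyloid deposition, so no library came from mice without them. The 5xFAD;Cxcr6-/- mice also lacked CXCR6, a chemokine receptor of tissue-resident T cells. The labels give no age or sex and do not give the number of mice behind a library, so every p-value measures only the spread between these libraries, which may be technical. The 4 gene expression samples of the series were not analysed here, so the CD45+ label was not checked against expression.

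A TRA gene is assembled in a developing thymocyte by joining a TRAV to a TRAJ segment, with bases trimmed and inserted at the junction, the third complementarity-determining region (CDR3). The first joins tend to use TRAV segments near the 3′ end of the array and TRAJ segments near its 5′ end, which carry high numbers. Because each join deletes what lies between, later joins on the same chromosome use TRAV further 5′ and TRAJ further 3′, with lower numbers, until a receptor is selected or the array is spent. TRAV1 joined to TRAJ33 is also the invariant alpha chain of mucosal-associated invariant T (MAIT) cells, which recognise vitamin B metabolites on MR1.

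On chromosome 14 of GRCm38 (mm10) all 4 segments are annotated by GENCODE as functional V genes on the plus strand. TRAV1 (ENSMUSG00000076758.6, chr14:52427928-52428876) and TRAV2 (ENSMUSG00000076759.3, chr14:52567198-52568051) are numbers 1 and 2 of 128 annotated TRAV, counted from the 5′ end, and lie 1728 kb and 1589 kb upstream of TRAJ58. TRAV17 (ENSMUSG00000096397.7, chr14:53806639-53807115) and TRAV19 (ENSMUSG00000076862.5, chr14:53845234-53845827) are numbers 122 and 124 and lie 350.2 kb and 311.5 kb upstream of it. No annotated TRAV carried any of these names with a copy suffix. TRAV19 is not the last segment: 4 annotated TRAV lie 3′ of it, of which TRAV21-DV12 had 48 chains and TRAV20, TRAV22 and TRAV23 had 0. The germline bases that each segment can give to a CDR3, from its conserved cysteine codon on, were read from the GENCODE transcripts and are the part against which trimming and insertion were counted.
TRAV1: tgtgctgtgaggga
TRAV2: tgcattgtgactgaca
TRAV17: tgtgcactggaggg
TRAV19: tgcgcagcaggtg

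Each library held 765 to 2522 cell barcodes and 13460 to 34772 receptor UMIs, and 5025 of 6686 barcodes had exactly 1 TRB and 1 or 2 TRA chains and were used. Cells of a library with the same deposited clonotype identifier formed 1 clone, which gave 454 and 833 clones in the 5xFAD;Cxcr6-/- libraries and 957 and 1147 in the 5xFAD libraries. Of the 205 contigs, 194 were in usable cells, 4 in cells without a TRB and 7 in cells with 2 or more TRB. The 194 came from 125 clones holding 126 chains, since 1 cell carried a pair of TRAV17 chains. The libraries shared 28 barcodes, but no chain was shared at any of them and none held a contig of the 4 segments. The 5xFAD libraries were the larger ones, so sampling depth and genotype cannot be told apart in counts of clones and clone sizes.

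The ends of the array joined different TRAJ segments in every library. TRAV1 and TRAV2 chains had a mean TRAJ number of 19.6 and 21.6 in the 5xFAD;Cxcr6-/- libraries and 24.2 and 25.7 in the 5xFAD libraries. TRAV17 and TRAV19 chains had means of 48.1 and 44.9 in the 5xFAD;Cxcr6-/- libraries and 46.7 and 47.2 in the 5xFAD libraries. The ranges of the library means did not overlap between the ends. The difference within a library, TRAV1 and TRAV2 minus TRAV17 and TRAV19, averaged -23.9 ± 3.13 TRAJ positions (SD, n = 4), with values of -28.5, -23.3, -22.5 and -21.5. It was negative in 4 of 4 libraries, with an exact two-sided sign-flip permutation p of 0.13, the smallest that 4 libraries can give. Measured as distance from the TRAJ segment to the constant gene Trac, the difference was -31.0 kb and -25.2 kb in the 5xFAD;Cxcr6-/- libraries and -24.1 kb and -23.0 kb in the 5xFAD libraries.

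**Figure D1:**
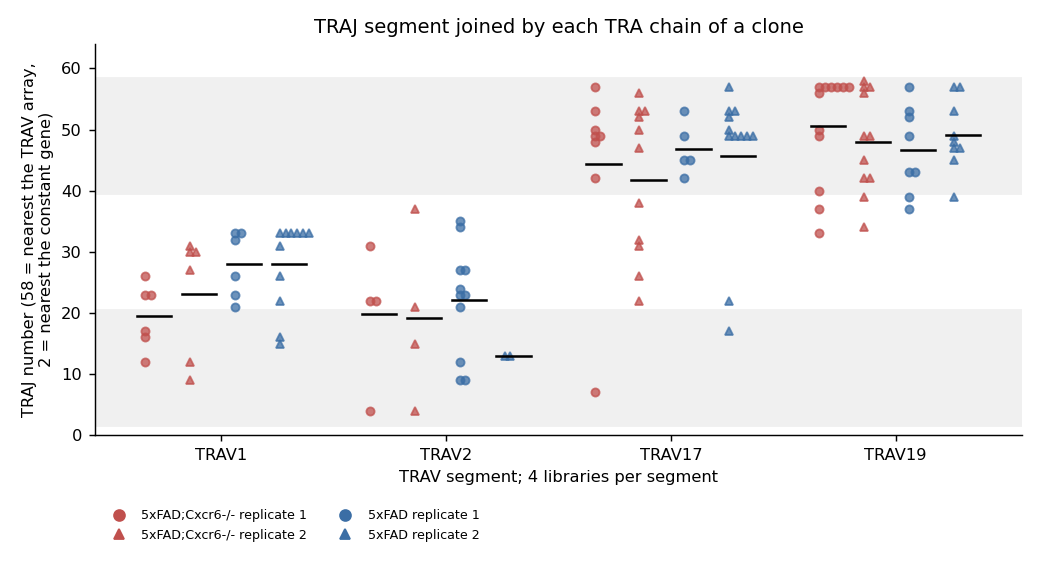
Each point is 1 TRA chain of a clone, placed by its TRAJ number (vertical axis) and grouped by TRAV segment and library (5xFAD;Cxcr6-/- in red, 5xFAD in blue), with black bars for library means and grey bands for TRAJ58 to 40 and TRAJ20 to 2. No TRAV1 or TRAV2 chain lies above TRAJ37, while 61 of 76 TRAV17 or TRAV19 chains lie at TRAJ40 or higher.

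The 5′ part of the TRAJ array was not seen with the 5′ TRAV. TRAJ58 to TRAJ40 were used by 0 of 50 TRAV1 or TRAV2 chains, which allows a share of up to 6% (3 counts of the total), and by 61 of 76 TRAV17 or TRAV19 chains, or 80.3% (exact 95% Clopper-Pearson interval 69.5 to 88.5). Among the 3612 chains of all other TRAV the share was 23.4%. In single libraries the share for TRAV17 and TRAV19 was 85% and 68.2% in the 5xFAD;Cxcr6-/- libraries and 84.6% and 85.7% in the 5xFAD libraries. At the other end of the TRAJ array, TRAJ20 to TRAJ2, lay 15 of the 50 TRAV1 or TRAV2 chains and 2 of the 76 TRAV17 or TRAV19 chains. Intervals and limits here and below cover counting error only.

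Each of the 4 segments kept to its own side. TRAV1 averaged TRAJ 25.2 ± 7.67 (SD over 29 chains) and TRAV2 averaged 20.3 ± 9.78 (21 chains). TRAV17 averaged 44.4 ± 12.2 (36 chains) and TRAV19 averaged 48.8 ± 7.65 (40 chains). TRAV2, the more 3′ of its pair, had the lower mean, but without the TRAV1 chains joined to TRAJ33 the mean of TRAV1 was 22.3 ± 7.001 (21 chains). The means of these neighbours lay within the SD over chains of each other, as did those of TRAV17 and TRAV19. That SD describes single chains, and a difference between the segments of a pair was not tested. TRAV19 reached no lower than TRAJ33, whereas 2 of the 36 TRAV17 chains were joined to TRAJ20 or lower, 1 of them to TRAJ7.

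Set against all other TRAV, the 3′ pair stood apart more clearly than the 5′ pair. Other TRAV chains averaged TRAJ 29.4 and 30.4 in the 5xFAD;Cxcr6-/- libraries and 27.0 and 27.9 in the 5xFAD libraries. TRAV17 and TRAV19 exceeded them by 18.05 ± 2.43 (SD, n = 4; 4 of 4 libraries, exact sign-flip permutation p = 0.13). TRAV1 and TRAV2 lay below them by a mean difference of -5.89 ± 3.98 (SD, n = 4; 4 of 4 libraries, exact sign-flip permutation p = 0.13), but their median was below that of the other TRAV in only 2 of 4 libraries, the 5xFAD;Cxcr6-/- ones. The 5xFAD libraries were richer in the invariant TRAV11-TRAJ18 chain of natural killer T (iNKT) cells and held all TRAV1-TRAJ33 chains, and both fixed pairings set TRAJ numbers. With these chains left out on both sides, the difference of means between TRAV1 or TRAV2 and other TRAV was -10.4 and -9.12 in the 5xFAD;Cxcr6-/- libraries and -5.92 and -9.82 in the 5xFAD libraries.

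The mean TRAJ number of a segment rose towards the 3′ end of the array, mainly in its 3′ part, and the 4 end segments were not its extremes. Over the 65 TRAV with at least 20 chains, the order along the chromosome and the mean TRAJ number had a Spearman correlation of 0.762, and of 0.740 over the 61 without the 4 end segments. These are descriptions across segments of the same libraries, and no p is given. From TRAV1 to TRAV7-4, 1033 kb further 3′, the means of these segments lay between 18.2 (TRAV14D-3-DV8) and 30.2 (TRAV8D-1). From TRAV9-4 on, 1248 kb from TRAV1, all were above 40. Places are those of the labels, and several D labels had chains where the N copy of that number had 0 (TRAV3D-3 102, TRAV3N-3 0). Whether such chains came from the D or the N copy was not tested. From the lowest mean to the highest, TRAV1 was number 24 of 65, TRAV2 number 5, TRAV17 number 61 and TRAV19 number 64. Next to the 5′ pair, TRAV5-1 averaged TRAJ 24.1, TRAV6-1 21.5 and TRAV7-1 25.0. Next to the 3′ pair, TRAV16 averaged 45.2, TRAV13-4-DV7 42.9 and TRAV14-3 45.6, and TRAV21-DV12, on the 3′ side of TRAV19, averaged 49.1. The segments whose split over the TRAJ58 to 40, 39 to 21 and 20 to 2 ranges was most like TRAV17 were TRAV21-DV12 and TRAV14-3, and the same names came out for TRAV19. For TRAV2 they were TRAV6-1 and TRAV3D-3, and for TRAV1 TRAV6-4 and TRAV7-3, at summed differences of 9.09 to 23.2 percentage points over the pooled libraries.

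**Figure D2:**
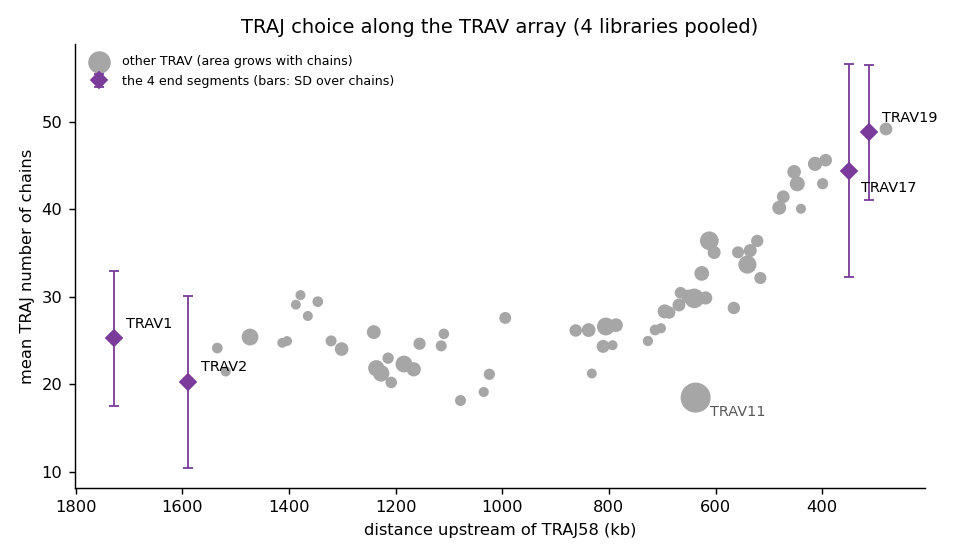
Mean TRAJ number of the chains of each TRAV with at least 20 chains (vertical axis) against its distance upstream of TRAJ58 in kb (horizontal axis, 5′ end at the left), with the 4 libraries pooled; purple diamonds are the 4 end segments with SD bars over chains. TRAV1 and TRAV2 sit at 25.2 and 20.3 at the left, TRAV17 and TRAV19 at 44.4 and 48.8 at the right, and TRAV11 lies below its neighbours.

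Between genotypes, the TRAJ choice of the 5′ pair differed by more than the spread between its libraries, and that of the 3′ pair did not. The gap between the ends averaged -25.9 ± 3.67 in 5xFAD;Cxcr6-/- and -22.0 ± 0.678 in 5xFAD (SD, n = 2 each), a difference of -3.93 with an exact two-sided permutation p of 0.333, the smallest that 2 libraries against 2 can give. TRAV1 and TRAV2 averaged 20.6 ± 1.41 in 5xFAD;Cxcr6-/- and 25.0 ± 1.03 in 5xFAD, and TRAV17 and TRAV19 averaged 46.5 ± 2.26 in 5xFAD;Cxcr6-/- and 46.9 ± 0.352 in 5xFAD (SD, n = 2 each). With the TRAV1-TRAJ33 chains left out, TRAV1 and TRAV2 averaged 19.6 and 21.6 in the 5xFAD;Cxcr6-/- libraries and 23.1 and 19.4 in the 5xFAD libraries, which overlap. Without the iNKT-like and MAIT-like clones the genotype difference of the gap was -0.187 (exact permutation p = 1), and with at least 3 UMIs per chain it was -1.97. Without 5xFAD;Cxcr6-/- replicate 1 it was -1.33, and without 5xFAD;Cxcr6-/- replicate 2 it was -6.52.

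In clone shares, the 3′ pair was higher in both 5xFAD;Cxcr6-/- libraries and the 5′ pair was not, and no segment passed the test. TRAV19, with the most clones of the 4 over all libraries but not in either 5xFAD library, made up 2.64% and 1.32% of clones in the 5xFAD;Cxcr6-/- libraries, against 0.836% and 0.785% in the 5xFAD libraries. TRAV17 made up 1.76% and 1.20% of clones in the 5xFAD;Cxcr6-/- libraries, against 0.522% and 1.05% in the 5xFAD libraries. The genotypes thus did not overlap for 2 of the 4 segments. Among all 152 V and J segments tested they did not overlap in either direction for 43.4%, and with the higher shares in 5xFAD;Cxcr6-/- for 28.9%. TRAV1 made up 1.32% and 0.720% of clones in the 5xFAD;Cxcr6-/- libraries, against 0.627% and 0.959% in the 5xFAD libraries. TRAV2 made up 0.881% and 0.480% in the 5xFAD;Cxcr6-/- libraries, against 1.15% and 0.174% in the 5xFAD libraries. For TRAV1 and TRAV2 the genotypes overlapped.

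The edgeR quasi-likelihood test on clone counts over all 152 segments, with Benjamini-Hochberg adjustment, called 0 of the 4, beside 1.32% of all segments (TRAV11 and TRAJ18, both lower in 5xFAD;Cxcr6-/-). An unadjusted p under 0.05 was reached by 12 segments, TRAV19 among them. The log2 fold change of TRAV19, 5xFAD;Cxcr6-/- over 5xFAD, was 1.13 (SE 0.49), with an edgeR adjusted p of 0.484 and an unadjusted one of 0.0242. That of TRAV17 was 0.78 (SE 0.54, edgeR adjusted p = 0.636). TRAV1 had 0.20 (SE 0.61, edgeR adjusted p = 0.9401). TRAV2 had 0.01 (SE 0.76, edgeR adjusted p = 0.9966). The median over all segments was 0.14. Counting either member of a pair, TRAV17 or TRAV19 was present in 3.46% ± 1.33 of clones in 5xFAD;Cxcr6-/- and 1.59% ± 0.334 in 5xFAD (SD, n = 2 each), a difference of 1.87 percentage points (exact permutation p = 0.333). Without 5xFAD;Cxcr6-/- replicate 1 it was 0.926 percentage points, and without 5xFAD;Cxcr6-/- replicate 2 it was 2.81. TRAV1 or TRAV2 was present in 1.70% ± 0.709 of clones in 5xFAD;Cxcr6-/- and 1.45% ± 0.455 in 5xFAD (SD, n = 2 each; exact permutation p = 0.667).

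**Figure D3:**
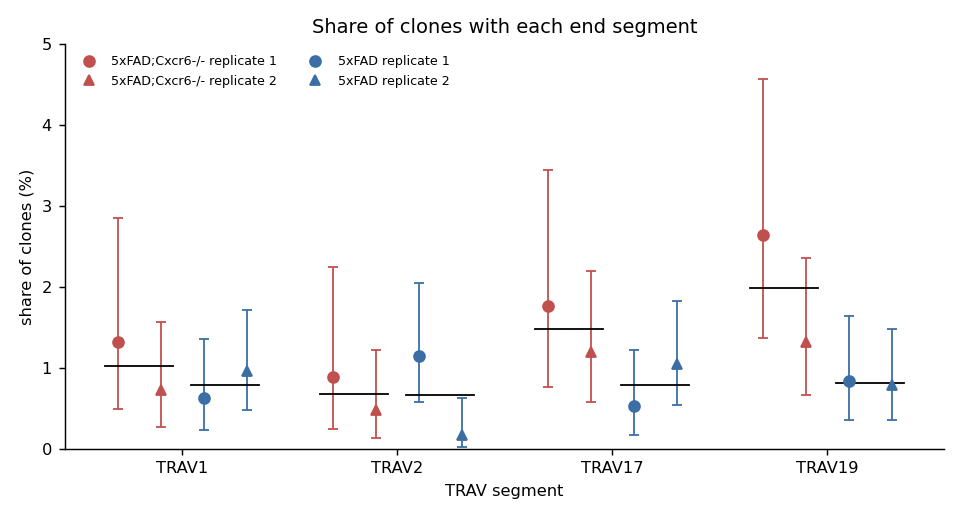
Share of clones in percent (vertical axis) that carried each end segment, by library (5xFAD;Cxcr6-/- in red, 5xFAD in blue), with exact 95% intervals for counting error and black lines for genotype means. For TRAV17 and TRAV19 both 5xFAD;Cxcr6-/- points lie above both 5xFAD points, and for TRAV1 and TRAV2 they overlap.

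Shares of cells, in which a clone counts by its size, overlapped between the genotypes for the pair at each end. TRAV17 or TRAV19 was carried by 4.76% and 2.20% of usable cells in the 5xFAD;Cxcr6-/- libraries, against 1.24% and 2.86% in the 5xFAD libraries. TRAV1 or TRAV2 was carried by 4.06% and 1.15% of usable cells in the 5xFAD;Cxcr6-/- libraries, against 1.38% and 0.743% in the 5xFAD libraries. The exact permutation p was 0.667 for each pair. Taken alone, TRAV1 did not overlap, with 1.76% and 0.669% of usable cells in the 5xFAD;Cxcr6-/- libraries against 0.393% and 0.584% in the 5xFAD libraries. TRAV2, TRAV17 and TRAV19 each overlapped. How many of all segments did not overlap by cells was not counted.

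TRAV19 was joined most often to TRAJ57 (11 of 40 chains), TRAV17 to TRAJ49 (8 of 36) and TRAV1 to TRAJ33 (8 of 29), whereas no TRAJ had more than 2 of the 21 TRAV2 chains. The TRAV17-TRAJ49 chains include clonotypes of 5xFAD replicate 2 with the same TRA and TRB CDR3 that differ only in TRBV label. They also include single cells that repeat the TRAV17 junction of a clone in their library with another TRB. The lead over TRAV17-TRAJ53, with 6 chains, thus depends on how such chains are counted. Over both pairs, 20 TRAJ were used by TRAV1 or TRAV2 and 24 by TRAV17 or TRAV19, and 8 TRAJ were used by both. TRAJ57 and TRAJ49 led at the 3′ end with 13 chains each, 17.1% of its chains, against 1.301% and 3.21% of other TRAV chains. TRAJ53 followed with 8 chains, 10.5% against 1.11%. Of the 13 TRAJ57 chains 11 were TRAV19, and of the 13 TRAJ49 chains 8 were TRAV17. All 3 TRAJ were found with the 3′ pair in 4 of 4 libraries, TRAJ57 in 7 and 2 chains of the 5xFAD;Cxcr6-/- libraries and in 1 and 3 of the 5xFAD libraries.

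At the 5′ end TRAJ33 led with 8 chains, followed by TRAJ23 with 5 and TRAJ9 with 3, a number that 6 other TRAJ shared. The 8 TRAJ33 chains were all TRAV1. They were 0 of 6 and 0 of 6 TRAV1 chains in the 5xFAD;Cxcr6-/- libraries, against 2 of 6 and 6 of 11 in the 5xFAD libraries. As shares of usable cells these MAIT-like cells were 0 of 567 and 0 of 1046 in 5xFAD;Cxcr6-/-, which allows up to 0.529% and 0.287%, and 0.131% and 0.318% in 5xFAD. The first of these limits lies above both 5xFAD shares and the second lies between them. The limits thus do not set the genotypes apart, and a difference in these shares was not tested. All 8 chains were single cells with different TRB sequences under 6 TRBV labels, all had a CDR3 of 12 residues, 5 had no inserted base, and 6 rested on 1 UMI.

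The most frequent form of this chain, seen in 4 cells of both 5xFAD libraries, has no inserted base, and a second form found in both has 3 inserted bases, shown here in capitals. The first line is the TRAV1-TRAJ33 form without insertion and the second the form with it.
TRAV1-TRAJ33, no insertion: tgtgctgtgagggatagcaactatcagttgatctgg
TRAV1-TRAJ33, 3 inserted bases: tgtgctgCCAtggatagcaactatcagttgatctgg

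The CDR3 of the ends was close in length to that of the other TRAV. TRA CDR3 averaged 13.9 and 13.6 residues for TRAV1 or TRAV2 in the 5xFAD;Cxcr6-/- libraries and 13.5 and 13.2 in the 5xFAD libraries. For TRAV17 or TRAV19 the averages were 13.9 and 13.5 residues in the 5xFAD;Cxcr6-/- libraries and 13.9 and 13.5 in the 5xFAD libraries, and for other TRAV 13.7 to 13.9. The difference between the ends was -0.18 ± 0.27 residues (SD, n = 4; exact sign-flip permutation p = 0.5). Inserted bases averaged 2.40 ± 0.285 per chain for TRAV1 or TRAV2, 2.55 ± 0.614 for TRAV17 or TRAV19 and 2.91 ± 0.215 for other TRAV (SD over 4 library means). No base was inserted in 11 of 50, 13 of 76 and 630 of 3612 chains of these classes. Of the 11 chains of the 5′ pair, 10 were among the 29 TRAV1 chains and 1 among the 21 TRAV2 chains.

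Pooled over its segments, the 3′ pair had higher mean trimming than the other TRAV in every library at both sides of the junction. Neither TRAV17 nor TRAV19 alone was higher in every library at either side, and 4 libraries cannot carry a test past 0.05. TRAV17 and TRAV19 had lost 2.42 ± 0.148 germline V bases per chain and other TRAV 1.88 ± 0.0161 (SD over 4 library means), higher in 4 of 4 libraries (exact sign-flip permutation p = 0.13). TRAV19 alone lost 1.75 and 4.09 V bases per chain in the 5xFAD;Cxcr6-/- libraries and 1.875 and 1.56 in the 5xFAD libraries. TRAV17 alone lost 3 and 1 in the 5xFAD;Cxcr6-/- libraries and 3.6 and 2.92 in the 5xFAD libraries. Other TRAV lost 1.89 and 1.89 in the 5xFAD;Cxcr6-/- libraries and 1.876 and 1.86 in the 5xFAD libraries. TRAV1 and TRAV2, with 2.08 ± 0.601, lay above the other TRAV in 3 of 4 libraries. TRAJ bases lost averaged 3.33 ± 0.635 per chain for TRAV17 or TRAV19 and 2.88 ± 0.0511 for other TRAV (SD over 4 library means), again higher in 4 of 4 libraries (exact sign-flip permutation p = 0.13), by 0.092 to 1.34 bases. For TRAV1 or TRAV2 it was 2.67 ± 0.504, above the other TRAV in 2 of 4. TRAV17 alone lost 2.63 TRAJ bases in 5xFAD;Cxcr6-/- replicate 1, below the 2.89 of other TRAV, and was above them in the remaining libraries. TRAV19 alone lost 2.38 and 2.78 in the 5xFAD libraries, below the 2.88 and 2.81 of other TRAV. In the 5xFAD;Cxcr6-/- libraries TRAV19 lost 3.25 and 4.09, above the 2.89 and 2.94 of other TRAV.

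TRB partners were spread widely. TRAV1 and TRAV2 chains were paired with 17 TRBV labels and TRAV17 and TRAV19 chains with 21, of 22 seen with other TRAV. The 3 leading labels of the 5′ pair, TRBV5, TRBV12-1 and TRBV12-2+TRBV13-2 (a label that names 2 segments at once), had 4 chains each, as had 3 others. Those of the 3′ pair were TRBV12-2+TRBV13-2 with 9 chains, TRBV19 with 8 and TRBV3 with 7, which is 11.8%, 10.5% and 9.21% of its chains, against 12.6%, 7.31% and 7.42% of other TRAV chains. The exact 95% intervals of these 3 shares all contained the share in other TRAV. The mean length of the TRB CDR3 was 13.5 to 14.7 residues with TRAV1 or TRAV2, 13.2 to 14 with TRAV17 or TRAV19 and 13.8 to 14.04 with other TRAV over the 4 libraries.

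In most clones with 2 TRA chains and an end segment, the second chain was joined to the same side of the TRAJ array as the end-segment chain. Both TRA alleles of a T cell can rearrange, and alpha chains are not strictly limited to 1 per cell. Counting each receptor once, TRAV1 or TRAV2 chains had 12 such partners with a mean TRAJ number of 18.9 (range 6 to 33), and TRAV17 or TRAV19 chains had 14 with a mean of 44.9 (range 18 to 56). A partner at TRAJ40 or higher was found for 0 of 12, which allows up to 25%, and for 11 of 14. The difference of library means was -25.8 ± 3.54 (SD, n = 4), between -30.5 and -22.0, negative in 4 of 4 libraries (exact sign-flip permutation p = 0.13). It rests on 1 to 6 partners per library and end. The value of -30.5, from 5xFAD replicate 2, rests on 1 TRAV17 cell. The TRAV17-TRAJ49 junction of that cell, with 2 inserted bases, is the same as that of a TRAV17 clone of 14 cells in that library with another TRB. Whether the chain entered the droplet from that clone was not tested. In 318 clones with 2 TRA chains and none of the 4 segments, chains averaged TRAJ 27.4.

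The V segments of the partners differed in position too. By its label, the partner TRAV began at a median of 553.7 kb from TRAV1 (range 194.6 to 1110 kb) for TRAV1 or TRAV2 chains. For TRAV17 or TRAV19 chains it began at 1262 kb (range 1089 to 1379 kb). Some partners of TRAV1 or TRAV2 carried D labels whose N copy had 0 chains (TRAV3D-3, TRAV12D-3, TRAV4D-4 and TRAV14D-1). The N copies lie further 3′, and which copy gave these chains was not tested, so the median of 553.7 kb holds for labels only. The pair of TRAJ numbers in a cell was 10 or less apart in 10 of 12 TRAV1 or TRAV2 receptors and 10 of 14 TRAV17 or TRAV19 receptors. It was so in 214 of 318 clones with 2 TRA chains and none of the 4 segments (67.3%). The widest gap with an end segment was 31 TRAJ positions, in a 5xFAD;Cxcr6-/- cell with TRAV17-TRAJ49 beside the invariant TRAV11-TRAJ18 chain. The TRAV17 junction of that cell is the same as that of a TRAV17 clone of 2 cells in its library with another TRB. Whether the TRAV17 chain entered the droplet from that clone was not tested. Other wide gaps were 19 positions (TRAV1-TRAJ26 beside TRAV3D-3-TRAJ7, 5xFAD) and 18 (TRAV17-TRAJ31 beside TRAV5-4-TRAJ49, 5xFAD;Cxcr6-/-). A further 5xFAD;Cxcr6-/- cell held a pair of TRAV17 chains, joined to TRAJ47 and TRAJ53. Whether that droplet held more than 1 cell was not tested.

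How often an end segment occurred in clones with 2 TRA chains varied between libraries. Of TRAV1 or TRAV2 chains, 40% and 30% came from such clones in the 5xFAD;Cxcr6-/- libraries, against 23.5% and 15.4% in the 5xFAD libraries. Of TRAV17 or TRAV19 chains it was 25% and 31.8% in the 5xFAD;Cxcr6-/- libraries, against 15.4% and 4.76% in the 5xFAD libraries. Other TRAV chains had 18.8% and 16.4% in the 5xFAD;Cxcr6-/- libraries and 19.6% and 18.7% in the 5xFAD libraries. Both ends were higher in both 5xFAD;Cxcr6-/- libraries, on 3 or 4 and 5 or 7 chains per library (exact permutation p = 0.333 for each end). These shares count every chain of every clonotype. Counting each receptor once, the 4 TRAV1 or TRAV2 chains of 5xFAD;Cxcr6-/- replicate 1 were 3 receptors, since a TRAV2 receptor was split by its TRBV label. The 7 TRAV17 or TRAV19 chains of 5xFAD;Cxcr6-/- replicate 2 were 6 receptors, since 1 cell held a pair of TRAV17 chains. By chains, the difference between the ends, 7.99 ± 7.12 percentage points, had 1 of 4 libraries in the other direction (SD, n = 4; exact sign-flip permutation p = 0.25). The difference kept its direction under all 10 alternatives, between 5.65 and 18.8. It was 18.8 with at least 3 UMIs per chain and 13.1 without iNKT-like and MAIT-like clones. With usable cells in place of clones it was 17.1, where all 4 libraries had the same direction (exact sign-flip permutation p = 0.13). It was smaller without 5xFAD;Cxcr6-/- replicate 1 (5.65) or 5xFAD replicate 2 (7.11). With clones joined and the label TRBV12-2+TRBV13-2 read as TRBV13-2 it was 6.26.

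Most clones with an end segment were single cells. Of the 50 clones with TRAV1 or TRAV2 9 had 2 or more usable cells, and of the 75 with TRAV17 or TRAV19 14 had. As shares of chains this was 18% (exact 95% interval 8.58 to 31.4) and 18.4% (10.5 to 29.0), beside 13.8% (12.7 to 14.95) for other TRAV. In single libraries TRAV1 or TRAV2 had 30% and 20% in 5xFAD;Cxcr6-/- and 17.6% and 7.69% in 5xFAD. TRAV17 or TRAV19 had 25% and 9.09% in 5xFAD;Cxcr6-/- and 23.1% and 19.05% in 5xFAD. The difference between the ends was -0.219 ± 10.0 percentage points (SD, n = 4; exact sign-flip permutation p = 0.875).

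**Figure D4:**
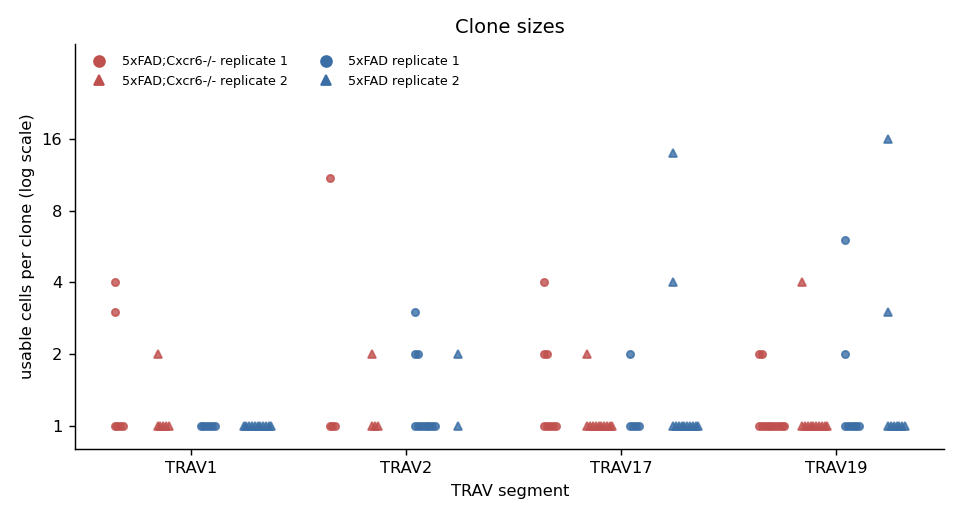
Usable cells per clone (vertical axis, log scale) for each chain of the 4 end segments, by library (5xFAD;Cxcr6-/- in red, 5xFAD in blue). Of the 4 clones with 5 or more cells, the TRAV2 clone of 11 cells is in a 5xFAD;Cxcr6-/- library and the TRAV17 and TRAV19 clones of 14, 16 and 6 cells are in 5xFAD libraries.

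Only 4 clones had 5 or more cells. In 5xFAD;Cxcr6-/- replicate 1 the largest clone of the whole library, with 11 of 567 usable cells (1.94%, exact 95% interval 0.972 to 3.44), carried TRAV2-TRAJ22 together with TRAV13N-1-TRAJ22 and the TRB label TRBV12-2+TRBV13-2 with TRBJ2-7. A further single cell with the same TRA pair was given another clonotype because its TRB was labelled TRBV13-2. In 5xFAD replicate 2 a TRAV19-TRAJ49 clone with TRBV19 had 16 of 1885 cells (0.849%, interval 0.486 to 1.37) and a TRAV17-TRAJ49 clone with TRBV29 had 14 (0.743%, interval 0.407 to 1.24), the numbers 8 and 10 of that library by size. The fourth, TRAV19-TRAJ53 with TRBV12-2 in 5xFAD replicate 1, had 6 of 1527 cells. TRAV1 reached no more than 4 cells, in a 5xFAD;Cxcr6-/- replicate 1 clone that joined it to TRAJ12. The TRA junctions of these 5 clones follow, with inserted bases in capitals, and all end in the germline TRAJ.
TRAV1-TRAJ12, 4 cells: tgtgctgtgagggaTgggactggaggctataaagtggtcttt
TRAV2-TRAJ22, 11 cells: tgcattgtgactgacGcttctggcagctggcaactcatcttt
TRAV17-TRAJ49, 14 cells: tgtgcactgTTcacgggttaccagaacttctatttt
TRAV19-TRAJ49, 16 cells: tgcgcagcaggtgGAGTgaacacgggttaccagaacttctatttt
TRAV19-TRAJ53, 6 cells: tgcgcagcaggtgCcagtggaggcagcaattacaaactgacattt

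The genotypes shared 2 exact end-segment chains, and neither needed an inserted base. TRAV1-TRAJ26 was found in 1 cell of 5xFAD;Cxcr6-/- replicate 1 and 1 cell of 5xFAD replicate 1, with different TRB. TRAV17-TRAJ49 was found in 5xFAD;Cxcr6-/- replicate 1 in a clone of 2 cells and 1 further cell, and in 5xFAD replicate 2 in clonotypes of 4 cells and 1 cell. The clone of 2 cells in 5xFAD;Cxcr6-/- and both clonotypes in 5xFAD paired it with TRBV13-2 or the joint label and TRBJ2-7, and their TRB CDR3, of 42 bases each, differed at 5 bases and at 1 of 14 residues. The junctions below show both alpha chains and that pair of beta chains.
TRAV1-TRAJ26, both genotypes: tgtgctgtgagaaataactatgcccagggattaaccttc
TRAV17-TRAJ49, both genotypes: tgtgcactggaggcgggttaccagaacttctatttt
TRB partner in 5xFAD;Cxcr6-/- replicate 1: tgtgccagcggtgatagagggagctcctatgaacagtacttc
TRB partner in 5xFAD replicate 2: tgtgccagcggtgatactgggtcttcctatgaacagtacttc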

How the data were processed

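The deposited contig tables hold raw counts of reads and UMIs for each assembled receptor contig and are not normalized, per the file headers; 10x Chromium Single Cell Immune Profiling v2 chemistry is stated per the labels' protocols, and Cell Ranger 6.0 and mm10 per the submitters' processing notes. All deposited contigs were marked productive. The segments, lists and tests were chosen with earlier results of these data known. Usable cells had 1 TRB and 1 or 2 TRA; cells with 2 TRB, which can be doublets, were left out. Junctions were aligned to GENCODE vM21 transcripts, which left 3 chains of all TRAV unmatched. Clone counts of V and J segments with at least 10 clones were tested with edgeR 4.0.16 (quasi-likelihood, offset of the log clone total, threshold 0.05), after a run on simulated data; DESeq2 1.42.0 was an alternative. Fold-change SEs were the size of the log2 change over the root of its F statistic. Library values were compared with exact two-sided permutation tests (SciPy 1.17.1), none of which could pass at 4 libraries. Named beside the 4 segments were the 3 leading TRAJ and TRBV of each end (ties to the lower number), the largest clones and those of 5 or more cells, chains shared by libraries, array neighbours and the TRAV most alike in TRAJ use.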

Additional observations from a re-analysis of the deposited data

Results flagged for a closer look

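In the share of chains from expanded clones, TRAV1 or TRAV2 exceeded TRAV17 or TRAV19 in both 5xFAD;Cxcr6-/- libraries (by 5.0 and 10.9 percentage points) and lay below it in both 5xFAD libraries (-5.43 and -11.4), so that the mean differences of the genotypes were 16.3 percentage points apart. Opposite directions in the genotypes drew attention to it, and the difference was not tested beyond an exact permutation of 2 libraries against 2, which can give no p under 0.333. The shares rest on 1 to 5 expanded chains per end and library.

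The same opposite directions were seen in TRA CDR3 length, where the ends differed by 0.050 and 0.055 residues in 5xFAD;Cxcr6-/- and by -0.452 and -0.370 residues in 5xFAD, means that were 0.463 residues apart. This difference was likewise not tested. All 8 TRAV1-TRAJ33 chains, 12 residues long, were in the 5xFAD libraries.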

How the results depend on the processing

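The TRAJ gap between the ends kept its direction under all 15 alternatives, between -26.1 and -22.4. No alternative called any of the 4 segments. The count of called segments was 2 in edgeR and stayed at 2 or 3 except without iNKT-like and MAIT-like clones (0, with 7 at an unadjusted p under 0.05) and with usable cells in place of clones (0, with 12). Leaving out each library in turn gave 2 throughout. The log2 fold changes ranged from 0.41 to 1.39 for TRAV17 and from 0.59 to 1.69 for TRAV19. That of TRAV1 was 1.20 with usable cells, 0.89 without iNKT-like and MAIT-like clones and 0.80 with at least 3 UMIs per chain, turned to -0.095 with 1 TRA only, and with a library left out ranged from -0.16 (without 5xFAD;Cxcr6-/- replicate 1) to 0.70; it was -0.04 without 5xFAD replicate 1. That of TRAV2 turned to -0.20 without iNKT-like and MAIT-like clones, -0.55 with at least 3 UMIs per chain, -0.034 with 1 TRA only, -0.12 under TMM and -0.14 in DESeq2. It was also -0.18 with clones joined and the label TRBV12-2+TRBV13-2 read as TRBV13-2, an alternative chosen after seeing the data. With a library left out TRAV2 ranged from -0.87 (without 5xFAD replicate 2) to 1.75, and was -0.36 without 5xFAD;Cxcr6-/- replicate 1. The difference between the ends in expanded share turned to 0.376 with joined clones and that label merged, 1.69 without invariant clones and 9.65 with at least 3 UMIs, and ranged from -3.93 to 3.49 with a library left out (1.52 without 5xFAD replicate 1). The CDR3 length difference turned to 0.092 without invariant clones. The genotype difference in the clone share of TRAV1 or TRAV2 ranged from -0.254 to 0.748 percentage points with a library left out (-0.075 without 5xFAD replicate 2), and that of TRAV17 or TRAV19 from 0.926 to 2.81. The cause was not tested for any of these. Deviations of libraries with the same replicate number had a correlation of -0.062, so the numbers were not taken to pair the libraries; with a replicate block, 2 segments were called. The block cannot move a difference of library means in this balanced design (1.87 percentage points for TRAV17 or TRAV19 either way). With 2 to 12 clones per segment and library, depth limits every genotype comparison.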

Other observations

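Thinned to 567 cells, the size of the smallest library, the share of TRAV1 or TRAV2 chains from expanded clones averaged 20.1% ± 14.01 in 5xFAD;Cxcr6-/- and 5.02% ± 4.75 in 5xFAD (SD, n = 2 each; means of 1000 draws, exact permutation p = 0.333). For TRAV17 or TRAV19 it averaged 16.9% ± 11.5 in 5xFAD;Cxcr6-/- and 24.5% ± 8.37 in 5xFAD (SD, n = 2 each; exact permutation p = 0.667).

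TRBJ2 segments were carried by the TRB partners of 70% and 68.2% of TRAV17 or TRAV19 chains in the 5xFAD;Cxcr6-/- libraries and of 69.2% and 81.0% in the 5xFAD libraries. For other TRAV chains the shares were 61.1% and 65.7% in the 5xFAD;Cxcr6-/- libraries and 64.4% and 65.6% in the 5xFAD libraries. The share of the 3′ pair was above that of other TRAV in 4 of 4 libraries, by 2.46 to 15.3 percentage points (exact sign-flip permutation p = 0.13). For TRAV1 or TRAV2 chains it was 46.2% to 70%, below that of other TRAV in 3 of 4 libraries (exact sign-flip permutation p = 0.375).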
